A study of Mus musculus with 20 samples.

Results

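Sox2, Sox4, Sox8, Sox9 and Sox11 were followed from progenitors to neurons in single cells of cultured mouse retina. They were chosen by name and are 5 of the 23260 genes in the deposited table of counts. Each gene's unique molecular identifiers (UMIs, counts of captured transcripts) were summed over the cells of each library and each cell type named by the authors. Retinal explants of CD1 mice, an outbred strain, were electroporated, with a stated age of P2 or P5 (postnatal day 2 or 5), with a GFP control, MEIS1, MEIS2 or a combination of both. MEIS1 and MEIS2 are related homeodomain transcription factors. All 20 libraries were made from GFP-positive cells, which limits them to cells that took up plasmid and to their descendants. Each age had 4 control libraries and 2 libraries of each of MEIS1, MEIS2 and the combination. Nothing in the labels says that libraries of a group came from separate animals or cultures, so p-values measure the spread between libraries, which may be technical.

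SOX proteins share a DNA-binding HMG box and act in families. SOX2 (the SoxB1 family) keeps neural progenitors in an undifferentiated state and in the retina is also found in Müller glia and in some amacrine cells. SOX8 and SOX9 (SoxE) are known from late retinal progenitors and from Müller glia, the glial cells that progenitors produce last. SOX4 and SOX11 (SoxC) accompany the onset of neuronal differentiation and switch on genes of young neurons.

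The table held 79009 cells of 9 types. Neurons made up most of it, with 38650 rods, 842 cones, 4530 bipolar, 13556 amacrine, 98 starburst amacrine and 55 horizontal cells. The others were 11818 progenitors, 9239 neurogenic cells and 221 Müller glia. Libraries held 1625 to 17739 cells and 2376875 to 141540352 UMIs. P2 MEIS2 replicate 2 stood apart at a median of 992 UMIs per cell, against 2416 to 14199 in the others, and P2 control replicate 1 held the most cells and UMIs. No pair of libraries shared more than 30 cell barcodes, and Scrublet marked 3.80% of cells as doublets, which stayed in. The labels contradict each other. The treatment tag names MEIS1 in the P2 libraries of either single construct and MEIS2 in those of P5, the series text names NR2F1 and NR2F2 and speaks of 2 or 5 days of treatment where the age tag gives P2 or P5, and barcodes begin with the library's own title in only 10 of 20 libraries. The barcodes of P2 control replicate 1 carry a combination title, and P2 combination replicate 2 carries a control title, so replicate numbers are uncertain. Titles and the deposited library names were followed, and P2 and P5 stand for the tag, since stage and days in culture cannot be told apart here. As a check of the labels, progenitors of P2 MEIS1 libraries held Meis1 at 2461 ± 226 (SD, n = 2) against 240 ± 84.3 (n = 4) for the P2 controls, and those of P2 MEIS2 libraries held Meis2 at 1228 ± 530 against 150 ± 37.2. At P5 Meis1 averaged 229 ± 21.2 in controls and 4122 ± 364 in MEIS1 libraries, and Meis2 47.6 ± 7.68 and 1005 ± 214 in MEIS2 libraries. The combination libraries held 910 to 990 of Meis1 and 664 to 937 of Meis2 at P2, above the highest P2 controls at 366 and 204, and 776 to 1124 and 995 to 1860 at P5. These and all levels below are in CPM, counts relative to all UMIs of the same cell type in the same library. Levels of single genes were scaled between libraries by TMM, except where given as unscaled, pooled or at 2000 UMIs per cell. CPM are not scaled to gene length, so that levels are compared between cell types and not between genes.

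On mm10 the 5 genes lie on separate chromosomes (GENCODE vM21). Sox2 is a single-exon gene at chr3:34650405-34652461 on the plus strand, inside the long noncoding gene Sox2ot, whose exons do not overlap it. Sox4 (chr13:28948919-28953713, minus strand) and Sox11 (chr12:27334264-27342574, minus strand) also have 1 exon each. Sox8 (chr17:25565892-25570686, minus strand) has 7 distinct exons and Sox9 (chr11:112782224-112787760, plus strand) has 3. The noncoding gene Gm26735 (chr13:28943048-28951671) lies on the opposite strand over the Sox4 exon and is counted in the table. Reads of opposite strands can be told apart only if the counting used strand, which is not given in the sources used here. An antisense gene, 2810468N07Rik, overlaps Sox8 and was not used here.

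The 250 bases before each RefSeq transcription start (GRCm38.p6) are shown for 4 of the genes, because the constructs add MEIS proteins and because Sox4 and Sox11 follow neuronal differentiation. Both strands were searched for TGACAG, the core motif bound by MEIS factors, and for CAGCTG, an E-box bound by proneural bHLH factors. The motifs do not overlap each other, and matches are in capitals. The windows are chr3:34649745-34649994 (plus strand) for Sox2, chr13:28953700-28953949 (minus strand) for Sox4, chr12:27342719-27342968 (minus strand) for Sox11 and chr17:25570687-25570936 (minus strand) for Sox8.
Sox2: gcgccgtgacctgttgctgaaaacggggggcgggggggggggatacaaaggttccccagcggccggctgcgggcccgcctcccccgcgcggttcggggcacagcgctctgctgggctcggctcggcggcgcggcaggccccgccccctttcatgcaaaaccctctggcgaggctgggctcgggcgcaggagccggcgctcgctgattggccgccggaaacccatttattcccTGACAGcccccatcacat
Sox4: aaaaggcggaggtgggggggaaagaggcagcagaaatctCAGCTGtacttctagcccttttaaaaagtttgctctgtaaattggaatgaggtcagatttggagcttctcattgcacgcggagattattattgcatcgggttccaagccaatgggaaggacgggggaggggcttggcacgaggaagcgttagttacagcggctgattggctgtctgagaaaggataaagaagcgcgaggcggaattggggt
Sox11: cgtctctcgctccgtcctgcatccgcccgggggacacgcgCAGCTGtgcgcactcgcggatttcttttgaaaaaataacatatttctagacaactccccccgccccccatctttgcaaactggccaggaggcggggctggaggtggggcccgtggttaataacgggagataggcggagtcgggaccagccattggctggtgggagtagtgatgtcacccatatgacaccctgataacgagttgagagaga
Sox8: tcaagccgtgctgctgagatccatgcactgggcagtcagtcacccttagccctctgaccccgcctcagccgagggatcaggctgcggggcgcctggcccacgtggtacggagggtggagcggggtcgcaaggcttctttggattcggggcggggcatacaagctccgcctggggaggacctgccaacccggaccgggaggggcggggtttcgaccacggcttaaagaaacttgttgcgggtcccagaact
The Sox2 window holds 1 TGACAG, and the Sox4 and Sox11 windows hold 1 CAGCTG each. The Sox8 window holds neither. Of all 32851 windows of this kind, 15.9% hold TGACAG and 13% hold CAGCTG. These matches describe the letters only. Sox9 had no entry in the table of promoters.

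In the common cell types of controls (progenitors, neurogenic cells, rods, amacrine and bipolar cells), Sox2, Sox8 and Sox9 were highest in progenitors, lower in neurogenic cells, the transient state between progenitor and neuron, and very low in rods. Sox4 was higher in neurogenic cells than in progenitors and high in amacrine and bipolar cells. Sox11 was far higher in amacrine cells than in any other common type. The cell types were defined by the authors from the same cells, so these contrasts are described without a test.

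Sox2 in P2 progenitors was 200, 120, 128 and 164 CPM in control replicates 1 to 4, and 201, 179, 258 and 236 CPM at P5. In neurogenic cells it was 51.3, 17.2, 42.5 and 28.8 CPM at P2 and 59.8, 87.3, 110 and 91.1 CPM at P5. Every progenitor value lay above every neurogenic value of the same age, by a median ratio within libraries of 4.80 at P2 and 2.47 at P5. Rods held 9.58, 5.32, 11.3 and 7.49 CPM at P2 and 4.76, 0.864, 4.09 and 1.84 CPM at P5, a median of 21.4 and 95.7 times below progenitors of the same library. Amacrine cells were at a similar low level, 11.8, 10.5, 25.2 and 6.91 CPM at P2 and 3.89, 4.0, 42.5 and 0.883 CPM at P5, with P5 control replicate 3 alone high. Bipolar cells at P5 (2.40 to 4.05 CPM) and rods overlapped.

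Starburst amacrine cells, the cholinergic class, departed from the other amacrine cells. The only control library of each age with at least 20 of them held 350 CPM of Sox2 at P2 and 121 CPM at P5. Pooled over control libraries, 50 starburst cells at P2 gave 320 CPM (95% exact Poisson interval 269 to 378) and 27 cells at P5 gave 101 CPM (67.9 to 144), and these intervals cover counting error only. At P2 the Sox2 level of these cells was thus above all 4 progenitor libraries (120 to 200 CPM), and at P5 it was below all 4 (179 to 258 CPM). The pooled values are unscaled. Against unscaled progenitors, at 102 to 193 CPM at P2 and 145 to 238 CPM at P5, the order was the same. Of the 27 P5 cells, 26 came from control replicate 1, at a median of 19.7% mitochondrial UMIs. The 29 cells of P2 control replicate 1 were at 8.48%, and the part of this was not tested. Sox8 had 0 UMIs in starburst cells at both ages, which allows up to 8.61 CPM at P2 and 12.4 CPM at P5. Horizontal cells at P2 (30 cells) had 0 Sox2 UMIs, with an upper bound of 17.8 CPM.

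Sox8 was near 0 in rods, bipolar and amacrine cells. It was 42.7, 53.7, 49.5 and 62.8 CPM in P2 progenitors and 65.5, 80.0, 88.4 and 76.2 CPM at P5. Neurogenic cells held 6.18, 5.72, 10.9 and 13.4 CPM at P2 and 14.3, 46.4, 47.1 and 37.1 CPM at P5, always below all progenitor libraries of that age, with a median ratio within libraries of 5.80 at P2 and 1.97 at P5. Rods stayed at or below 1.03 CPM in every control library, and P5 bipolar cells at or below 1.12 CPM. Amacrine cells held 0.437 to 2.20 CPM over the 8 libraries.

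Sox9 reached further into neurogenic cells than Sox8. In P2 progenitors it was 337, 259, 148 and 598 CPM and in P2 neurogenic cells 170, 91.6, 105 and 251 CPM. At P5 progenitors held 323, 197, 476 and 408 CPM and neurogenic cells 241, 129, 332 and 280 CPM. The groups overlapped, but the progenitors of a library were higher than its neurogenic cells in 4 of 4 libraries at each age, by a median ratio of 2.18 at P2 and 1.45 at P5. Rods held 26.1, 13.3, 19.6 and 68.0 CPM at P2 and 4.76, 2.16, 23.0 and 2.66 CPM at P5. The high P5 rod value was again that of control replicate 3, and the high P2 value that of control replicate 4, which had the most Sox9 in all 4 types compared at P2. P5 bipolar cells held 20.6, 6.73, 18.2 and 19.7 CPM, above the rods of the same library in 3 of 4. Replicate 3 was the exception, and without it the ranges were apart.

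Müller glia were rare, with 59 cells in P2 controls and 74 in P5 controls, so pooled CPM are given, without the scaling between libraries. At P2 they held Sox2 at 194 CPM (164 to 227), Sox8 at 20.3 CPM (11.6 to 32.9) and Sox9 at 219 CPM (188 to 254). At P5 the values were 177 CPM (156 to 200), 38.5 CPM (29.1 to 49.9) and 211 CPM (188 to 235). Sox2 was thus close to its level in progenitors, which unscaled was 102 to 193 CPM at P2 and 145 to 238 CPM at P5. Sox8 was lower than in any progenitor library. Sox9 lay within the range of the progenitor libraries of each age. It was below the progenitors of the same library in the 2 control libraries with at least 20 Müller glia. The values were 251 against 337 CPM in P2 control replicate 1 and 170 against 476 CPM in P5 control replicate 3. Sox4 was at 356 CPM (315 to 400) and 391 CPM (360 to 424), below the neurogenic libraries, and Sox11 at 115 CPM (92.8 to 141) and 65.5 CPM (53.1 to 79.9).

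Sox4 took the opposite course. P2 progenitors held 1075, 516, 420 and 880 CPM and P2 neurogenic cells 2057, 1057, 765 and 1816 CPM. At P5 the values were 671, 406, 687 and 586 CPM in progenitors and 2356, 1159, 2389 and 2122 CPM in neurogenic cells. Neurogenic cells were higher in 4 of 4 libraries at each age, and at P5 the ranges did not overlap. P2 amacrine cells held 3072, 952, 1298 and 2114 CPM, above progenitors in 4 of 4 libraries and overlapping neurogenic cells. P5 amacrine cells held 470, 730, 2561 and 1995 CPM and P5 bipolar cells 1780, 784, 2407 and 1751 CPM. Replicate 1 of the P5 controls was low in amacrine cells alone among these types. Its 866 amacrine cells had a median of 15.2% mitochondrial UMIs and 4245 UMIs per cell, against 3.52 to 6.0% and 6239 to 12441 UMIs in the 88 to 155 amacrine cells of the other P5 controls, and the part of this was not tested.

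Photoreceptors carried less Sox4 than amacrine and bipolar cells of the same library. Rods held 943, 469, 446 and 1004 CPM at P2, about as much as the progenitors of the same libraries, with 2 of 4 libraries on each side. At P5 they held 221, 77.3, 670 and 221 CPM and lay below progenitors in 4 of 4 libraries. P2 cones held 352, 78.1, 90.8 and 363 CPM, below all P2 rod libraries. In the 30 horizontal cells of P2 controls Sox4 was 886 CPM (762.4 to 1023).

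Sox11 in P2 amacrine cells was 1207, 390, 461 and 1157 CPM and at P5 223, 384, 1647 and 1291 CPM. Every amacrine library lay above every progenitor library of its age: P2 progenitors held 258, 88.9, 107 and 96.0 CPM, and P5 progenitors 68.2, 19.7, 78.1 and 34.2 CPM. Neurogenic cells overlapped progenitors at 209, 85.4, 76.1 and 119 CPM at P2 and 58.8, 33.7, 55.4 and 39.7 CPM at P5. Unlike Sox4, Sox11 thus showed no step between progenitors and neurogenic cells, and the median ratio within libraries was 1.14 at P2 and 1.01 at P5. Rods held 75.6, 24.1, 20.6 and 32.6 CPM at P2 and 15.8, 3.24, 8.67 and 4.19 CPM at P5, and P5 bipolar cells 30.5, 17.4, 22.9 and 25.4 CPM, above all P5 rods. Horizontal cells of P2 controls held 347 CPM (271 to 436).

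**Figure D1:**
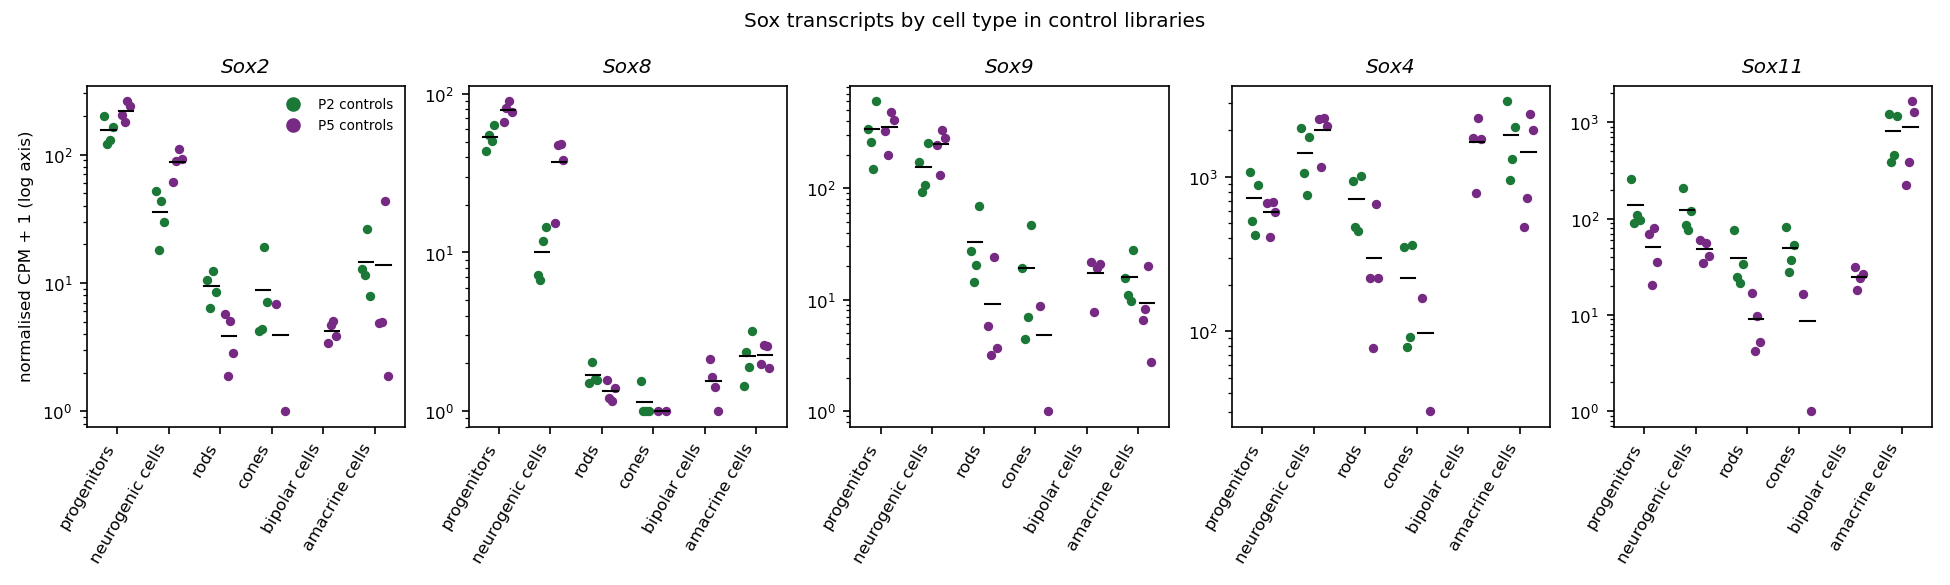
Level of each Sox gene by cell type in control libraries, in normalised CPM plus 1 on a log axis, with 1 point per library (green P2, purple P5) and a bar at the mean of each age with at least 2 libraries. Among the common types Sox2, Sox8 and Sox9 are highest in progenitors, Sox4 is high in neurogenic, amacrine and bipolar cells, and Sox11 is highest in amacrine cells.

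For the genes and types given here, shares of cells with at least 1 UMI kept the order once each cell was thinned to 1000 UMIs. Thinning left out 354 of 31733 P2 control cells and 360 of 17932 P5 control cells. Sox2 was found in 12.1% of P2 and 16.8% of P5 progenitors (54.2% and 88.9% unthinned), in 3.16% and 7.16% of neurogenic cells and in 0.781% and 0.318% of rods. Sox8 was found in 4.79% and 6.69% of progenitors (28.3% and 67.8% unthinned) and in 0.0558% and 0.0298% of rods. Sox9 was found in 23.1% and 24.4% of progenitors and in 2.37% and 0.606% of rods. Amacrine cells were at 1.01% and 1.36% for Sox2, 0.114% and 0.152% for Sox8 and 1.05% and 0.836% for Sox9. The mean share of rods was thus above that of amacrine cells for Sox9 at P2 and below it in the other cases. For Sox2 at P5 this rested on control replicate 3, whose amacrine cells were at 4.77%, against 0.0482 to 0.364% in the other P5 controls. Rods had library medians of 1728 to 4867 UMIs at P2 and 2463 to 7053 at P5, against 5503 to 12425 and 10926 to 24147 in progenitors. Amacrine cells had 2778 to 7827 and 4245 to 12441. How much of these low shares is free RNA was not tested. Sox4 was found in 42.3% and 37.0% of progenitors, 65.0% and 74.9% of neurogenic cells and 36.3% and 14.2% of rods, and Sox11 in 40.6% and 39.6% of amacrine cells against 10.6% and 4.16% of progenitors.

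Progenitors were also divided by whether a cell held a UMI of a proneural or Notch ligand gene, at 2000 UMIs per cell, a division chosen after the values were seen and given without a test. Sox4 averaged 695 CPM in P2 progenitors with such a UMI and 507 CPM in those without, higher with it in 4 of 4 libraries. At P5 the averages were 535 and 447 CPM, higher in 3 of 4. Sox11 was 134 against 83.1 CPM at P2 (4 of 4) and 47.7 against 41.3 CPM at P5 (3 of 4). Sox2 went the other way, at 130 against 144 CPM at P2 (higher in 0 of 4) and 188 against 205 CPM at P5 (higher in 1 of 4). Sox9 was 272 against 347 CPM at P2 (0 of 4) and 325 against 277 CPM at P5 (2 of 4), so its order was not kept. Sox8 was 50.8 against 44.9 CPM at P2 (3 of 4) and 77.0 against 73.8 CPM at P5 (2 of 4). The P5 orders rest on few UMIs. In P5 control replicates 1 to 4 the cells without held 5, 5, 19 and 3 UMIs of Sox11. Of Sox8 they held 4, 18, 27 and 14 UMIs. Counting error alone could therefore change the order in single P5 libraries.

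The genes whose levels went most closely with each member were taken over 11 points, each a control mean of a cell type at an age, among 7334 genes. These points share libraries, and cell types at 2 ages are not independent, so the correlations are descriptions. Sox2 went with Pon2 (Pearson r = 0.985), Dpyd (0.985) and Vim (0.984), the last an intermediate filament gene of progenitors and glia. Sox8 went with Zfp36l1 (0.994), Gstm1 (0.993) and Fxyd1 (0.992), and Sox9 with Tnfaip6 (0.977), Atp6v0e (0.976) and Ost4 (0.974). Sox4 went with Cd24a (0.983), a surface marker of young neurons, Dbn1 (0.982), an actin-binding protein of neurites, and Ldb1 (0.974). Sox11 went with Gad2 (0.967), a GABA-synthesizing enzyme of amacrine cells, Grik2 (0.957) and Hmx1 (0.944). By Spearman rank only Gstm1 stayed among the first 3, for Sox8. Among the members, Sox2 and Sox8 had r = 0.977, Sox2 and Sox9 0.959, Sox8 and Sox9 0.939, and Sox4 and Sox11 0.681. The remaining pairs lay between 0.222 and 0.495.

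Control libraries of P5 and P2 were then compared within each type. The fit was edgeR's quasi-likelihood test with Benjamini-Hochberg adjustment over all genes tested, and a gene was called at an adjusted p under 0.05. In progenitors 2 of the 5 genes were called, 1 in each direction, where 17.5% of all genes tested were called (10.6% higher and 6.96% lower at P5). Sox11 fell by 1.47 on the log2 scale (SE 0.47, adjusted p = 0.0391), 2.78-fold lower at P5 with no overlap of the 4 and 4 libraries, which held for 19.9% of all genes. Sox8 rose by 0.55 (SE 0.18, adjusted p = 0.0399), also without overlap after TMM scaling. Unscaled, P2 control replicate 4 (52.5 CPM) and P5 control replicate 1 (52.1 CPM) overlapped, and without TMM factors the call was lost (adjusted p = 0.0544). Sox2 was 0.49 higher (SE 0.23, adjusted p = 0.137), Sox4 0.31 lower (log2 difference -0.31, adjusted p = 0.479) and Sox9 differed by 0.06 (95% interval -0.67 to 0.78).

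Both progenitor calls were lost without some single control libraries. Sox11 stayed called only without P2 control replicate 2, P2 control replicate 4 or P5 control replicate 3. Without P2 control replicate 1, the library highest in Sox11, the difference was -0.99 (adjusted p = 0.132), and, also not called, it was -1.58, -1.66, -1.20 and -1.34 without P2 control replicate 3 and P5 control replicates 1, 2 and 4. Sox8 stayed called only without P2 control replicate 4 or P5 control replicate 1, and its difference ranged from 0.45 to 0.64 with adjusted p from 0.0279 to 0.0934. It also lost its call without Scrublet doublets (0.49, adjusted p = 0.0590), of which P2 control replicate 1 held 434 among its 2482 progenitors. With the libraries grouped by the titles in their barcodes, Sox2 was called as well (0.59, adjusted p = 0.0437). That grouping puts P2 combination replicate 2 among the controls, although both P2 combination libraries held more Meis1 and Meis2 than any P2 control, as given above.

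In neurogenic cells 3 of the 5 genes were called, against 9.27% of all genes tested (6.67% higher and 2.6% lower at P5), and the libraries of the 2 ages were apart for all 3, as for 13.5% of all genes. Sox8 rose 4.11-fold (log2 2.04, SE 0.40, adjusted p = 0.00238), and this call was kept under every alternative run. Sox2 rose 2.46-fold (log2 1.30, SE 0.34, adjusted p = 0.0197), and Sox11 fell by 1.39 on the log2 scale (SE 0.36, adjusted p = 0.0190). Sox9 was 0.67 higher (95% interval 0.01 to 1.33, adjusted p = 0.210) and Sox4 0.50 higher (-0.21 to 1.22, adjusted p = 0.417). The Sox2 call was lost without P2 control replicate 2 (1.09), P2 control replicate 4 (1.18) or P5 control replicate 3 (1.17), and that of Sox11 without P2 control replicate 1 (-1.02), P5 control replicate 2 (-1.25) or P5 control replicate 4 (-1.33).

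Markers of other types moved with these changes. The summed progenitor markers in neurogenic cells were 185 to 264 CPM in P2 controls and 800 to 1620 CPM at P5, where progenitors held 1480 to 1901 CPM. The 6 Müller glia markers in neurogenic cells went from 265 to 423 CPM up to 678 to 1774 CPM, and the 7 neurogenic markers from 1568 to 3385 CPM down to 844 to 2189 CPM. In progenitors the Müller markers went from 1069 to 1909 CPM up to 3666 to 5100 CPM. The part of these shifts in the Sox2, Sox8 and Sox11 differences was not tested. Markers of microglia, astrocytes and retinal ganglion cells stayed low in the 5 common types, at no more than 65.4, 30.9 and 26.7 CPM.

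In rods the called members were lower at P5. Sox11 was 4.83-fold lower at P5 (log2 -2.27, SE 0.51, adjusted p = 0.00745) and Sox2 fell by 1.53 on the log2 scale (SE 0.45, adjusted p = 0.0319), so that 2 of 5 were called where 13.2% of all genes tested were (7.24% higher and 5.94% lower). Both were apart between ages, as were 16.9% of all genes. For Sox2, Sox8 and Sox9 the rod level is low at both ages, and the part of free RNA in these differences was not tested. Sox9 was 1.97 lower (log2 -1.97, SE 0.70, adjusted p = 0.0714), Sox4 1.29 lower (log2 -1.29, SE 0.47, adjusted p = 0.0821, but called by DESeq2 with an adjusted p of 0.025) and Sox8, near 0 throughout, differed by -0.93 (95% interval -2.12 to 0.26). P5 control replicate 3 carried the most Sox9 and Sox4 among P5 rods, and without it both passed the threshold. The difference was then -3.31 for Sox9 (adjusted p = 0.00235) and -2.07 for Sox4 (adjusted p = 0.00241). The Sox11 call was kept under every alternative run. That of Sox2 was lost without P2 control replicate 1 (-1.46), 3 (-1.38) or 4 (-1.58) and without P5 control replicate 2 (-1.25) or 4 (-1.38).

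The rods of P5 were further along by their markers. The summed rod markers went from 1747 to 4197 CPM at P2 up to 8252 to 12804 CPM at P5. Progenitor markers in rods went from 49.3 to 62.1 CPM down to 24.7 to 38.7 CPM, and neurogenic markers from 775 to 1549 CPM down to 228 to 1134 CPM. Their part in the Sox differences was not tested.

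In amacrine cells none of the 4 genes tested was called by edgeR, with 0 at an unadjusted p under 0.05 and 0 by DESeq2, where 0.397% of all genes were called. Sox11 differed by 0.17 (95% interval -1.16 to 1.5) and Sox4 by -0.34 (-1.53 to 0.84). Sox2 differed by -0.13 (-1.81 to 1.54) and Sox9 by -0.88 (-2.19 to 0.43). Sox8 was too low to be tested. The intervals of Sox2, Sox4 and Sox9 include the rod values of these genes, and that of Sox11 does not. The rod values carry error of their own, and the age differences of rods and amacrine cells were not compared by a test. P5 control replicate 1, whose amacrine cells had the most mitochondrial UMIs, held the least Sox4 and Sox11 among them. Bipolar cells could not be compared between ages, because only 1 P2 control library held 20 of them.

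**Figure D2:**
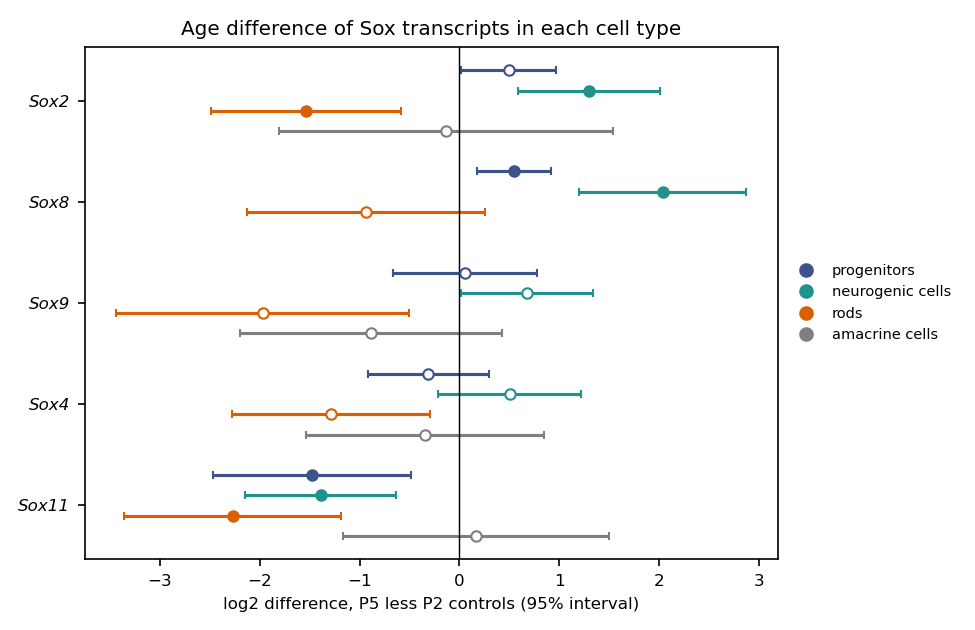
Difference between P5 and P2 control libraries for each Sox gene and cell type, as log2 fold change with 95% intervals, where filled points have an adjusted p under 0.05. Sox11 lies below 0 in progenitors, neurogenic cells and rods, Sox8 lies above 0 in progenitors and neurogenic cells, and Sox2 lies above 0 in neurogenic cells and below 0 in rods.

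Whether the age difference itself differed between types was tested in a joint fit of progenitors, neurogenic cells, rods and amacrine cells with each library as a block. Relative to progenitors, the age difference of Sox8 was 1.43 higher in neurogenic cells on the log2 scale (SE 0.33, adjusted p = 0.0133), the only one of the 5 called there, against 4.36% of all genes (3.21% higher). For Sox11 the same term was 0.25 (95% interval -0.92 to 1.43). In rods 3 of 5 terms were called, against 24.8% of all genes and 11.1% lower, and the median of all genes was 0.12. They were -2.27 for Sox9 (SE 0.45, adjusted p = 0.000913), -1.93 for Sox2 (SE 0.60, adjusted p = 0.0208) and -1.27 for Sox4 (SE 0.44, adjusted p = 0.0380). Sox8 was at -1.42 (adjusted p = 0.0609) and Sox11 at -0.64 (adjusted p = 0.450), so the fall of Sox11 in rods was not shown to differ from that in progenitors. The Sox8 term was called without P5 control replicate 1 (-1.99, adjusted p = 0.00697). The rods of the other P5 controls held 2, 2 and 4 Sox8 UMIs, so nothing is concluded from this call. The low-count filter of this fit ran over all 4 types together. It let Sox8 in for amacrine cells too, where it was too low to be tested alone. The Sox9, Sox2 and Sox8 terms rest on low rod counts, and the part of free RNA was not tested. In amacrine cells no term was called by edgeR (11.1% of all genes were), with 1 at an unadjusted p under 0.05 and 1 called by DESeq2: Sox11 differed by 1.71 (SE 0.57, adjusted p = 0.0540). It was called at 2.15 (adjusted p = 0.000748) without P5 control replicate 1, whose amacrine cells had the most mitochondrial UMIs, and at 2.07 (adjusted p = 0.0353) without P2 control replicate 4. Without P5 control replicate 3 the Sox2 and Sox9 terms of amacrine cells were called.

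Of the called terms, only that of Sox9 in rods was kept under every alternative run. The Sox8 term was lost without P2 control replicate 1 (1.38), 2 (1.30) or 3 (1.47) or P5 control replicate 2 (1.24) or 4 (1.34), the Sox2 term without P2 control replicate 1 (-1.99) or 3 (-1.80) or P5 control replicate 2 (-1.76) or 4 (-1.75), and the Sox4 term without P2 control replicate 1 (-1.32), 2 (-1.32), 3 (-1.31) or 4 (-1.23) or P5 control replicate 2 (-1.02) or 4 (-1.30).

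Genes that belong to the same programmes as the members were counted in the same fits, in lists of 12 that were drawn up with earlier results of these data known. In progenitors, 9 of 12 glial genes associated with SOX8 and SOX9 rose at P5 and 0 fell, where 10.6% of all genes rose and 6.96% fell, with a median log2 difference of 1.36 against -0.04 over all genes. Among them were Rlbp1, the retinaldehyde-binding protein of Müller glia (2.36), Slc1a3, a glutamate transporter (1.97), Glul, glutamine synthetase (0.91), Car2, carbonic anhydrase (2.60), and Apoe, an apolipoprotein (2.90). Of 12 progenitor genes associated with SOX2, such as Pax6 and Hes1, 0 rose and 1 fell: Fgf15, at -2.61, with a median of 0.16. Of 11 tested neuron genes associated with SOX4 and SOX11, 0 rose and 3 fell, with a median of -1.44: the tubulin gene Tubb3 (-2.07), Stmn2 (-2.17) and Elavl4 (-1.59). Of the 12 genes in the proneural and Notch ligand list 8 fell, among them Atoh7 (-5.26) and Dll3 (-3.61), with a median of -2.43. The 1 that rose was Btg2 (1.49), which is itself neither a proneural factor nor a Notch ligand.

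In neurogenic cells, 8 of 11 tested glial genes rose and 0 fell, where 6.67% of all genes rose and 2.6% fell (median 1.18 against 0.00 over all genes), led by Rlbp1 at 4.59. Of the SOX2-associated genes 4 rose, among them Hes1 (2.83), Ccnd1 (1.57) and Lhx2 (0.98), and Rax fell by 1.37 on the log2 scale (median 0.20). Of 11 neuron genes 4 fell, among them Stmn2 (-3.38) and Elavl3 (-2.73), and Isl1, a gene of bipolar, amacrine and ganglion cells, rose by 2.34 (median -0.82). Of 12 proneural and Notch ligand genes 6 fell and 0 rose (median -0.85). The markers of progenitors and Müller glia rose in these cells at the same time, as given above, and their part was not tested.

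In rods, 5 of 11 SOX2-associated genes fell and 0 rose, where 5.94% of all genes fell and 7.24% rose (median -0.89 against 0.00), among them Hes5 (-2.45) and Pax6 (-1.72). Of 11 neuron genes 3 fell (median -1.04) and of 11 proneural genes 7 fell (median -1.82), with 0 rising in either list. The glial list was mixed, with Car2 at 1.34, Vim at -1.81 and Dkk3 at -1.95 called of 11 and a median of -0.37. In amacrine cells, where 0.397% of all genes were called, Nfix (4.37) was the 1 called of 10 glial genes tested. Of 11 SOX2-associated, 10 neuron and 12 proneural genes edgeR called 0, with 2, 0 and 3 at an unadjusted p under 0.05.

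The constructs were compared with controls next. With the 3 construct groups combined against the controls of the same age, 43 tests of a member in 9 combinations of type and age gave 0 calls by edgeR, 0 at an unadjusted p under 0.05 and 0 by DESeq2. The share of all genes called was 0.0135% and 0.0202% in progenitors at P2 and P5, 0.0% and 0.00728% in neurogenic cells, 0.0% at both ages in rods and in amacrine cells, and 0.00678% in P5 bipolar cells. Log2 differences of the members lay between -0.48 and 0.79, the lowest adjusted p was 0.623, and the 95% intervals reached from -2.33 to 2.15. In P2 progenitors the differences were 0.44 for Sox11, 0.28 for Sox2, 0.26 for Sox8, 0.23 for Sox9 and 0.23 for Sox4. In P5 progenitors they were -0.16 for Sox2, -0.15 for Sox9, -0.04 for Sox8 and 0.01 for Sox4, and the Sox11 interval was -0.94 to 0.95. The difference between P5 and P2 in the effect of the constructs was not called either: 0 of 19 terms in 4 types were called by edgeR, 0 at an unadjusted p under 0.05 and 0 by DESeq2, where 0.0% of all genes were called. Of the 4 lists of programme genes above, none had a member called for the 3 constructs by edgeR in any of these types and ages, and 0 to 3 genes of a list had an unadjusted p under 0.05. The proneural and Notch ligand genes of P5 progenitors had the lowest list median, -0.62 against -0.04 over all genes.

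Single constructs were compared with controls in progenitors, where they share the 4 controls of an age. Of 30 tests 0 were called by edgeR, where 0.00673% (MEIS1 at P2, and MEIS1 and MEIS2 at P5), 0.0135% (the combination at either age) and 0.0404% (MEIS2 at P2) of all genes were called. At an unadjusted p under 0.05 there was 1, Sox8 with MEIS2 at P2, which DESeq2 called. Sox8 was 93.7 and 87.5 CPM in the MEIS2 libraries and 42.7 to 62.8 CPM in the P2 controls, with no overlap, as for 16.3% of all genes. The log2 difference was 0.81 (95% interval 0.36 to 1.26, edgeR adjusted p = 0.153), and in DESeq2 0.84 (adjusted p = 0.0244). One of these libraries, replicate 2, had a median of 1067 UMIs per progenitor, the shallowest. Its cells had a median of 0.387% mitochondrial UMIs, the lowest of all libraries. Sox8 was above the P2 controls in its neurogenic cells (29.4 CPM from 11 UMIs, against 5.72 to 13.4 CPM) as well. The same held in its amacrine cells (8.76 CPM from 7 UMIs, against 0.437 to 2.20 CPM). In replicate 1 neurogenic cells held 13.9 CPM and amacrine cells 0 UMIs. At P5 the MEIS2 libraries held 78.8 and 85.0 CPM, within the controls at 65.5 to 88.4 CPM. MEIS1 libraries held 41.1 and 56.6 CPM at P2 and 56.2 and 81.5 CPM at P5. The combination libraries held 65.5 and 42.1 CPM at P2 and 71.7 and 81.2 CPM at P5. Progenitor Sox8 at P2 was thus above the controls in the MEIS2 libraries and, barely, in 1 combination library.

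The other members overlapped their controls in most construct groups. Sox2 in P2 progenitors was 212 and 208 CPM with MEIS1, 231 and 96.9 CPM with MEIS2 and 208 and 150 CPM with the combination, against 120 to 200 CPM in controls. The MEIS1 libraries and 1 combination library lay just above the controls, and the 2 MEIS2 libraries lay on either side of them. At P5 Sox2 was 195, 187, 162, 196, 206 and 234 CPM in the same order, against 179 to 258 CPM. Sox9 was 371, 238, 444, 602, 399 and 341 CPM at P2 and 336, 231, 288, 302, 312 and 452 CPM at P5, against 148 to 598 and 197 to 476 CPM. Of these 12 values only P2 MEIS2 replicate 2 lay outside the controls.

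Sox4 in P2 progenitors was 803, 738, 1147, 611, 1019 and 702 CPM in MEIS1, MEIS2 and combination libraries, against 420 to 1075 CPM in controls, and at P5 564, 414, 673, 562, 736 and 647 CPM against 406 to 687 CPM. Sox11 was 239, 208, 235, 53.9, 233 and 151 CPM at P2 against 88.9 to 258 CPM, and 39.7, 28.9, 68.0, 41.0, 91.9 and 45.8 CPM at P5 against 19.7 to 78.1 CPM. For both genes the constructs lay among the controls except for 1 library in each set and age.

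**Figure D3:**
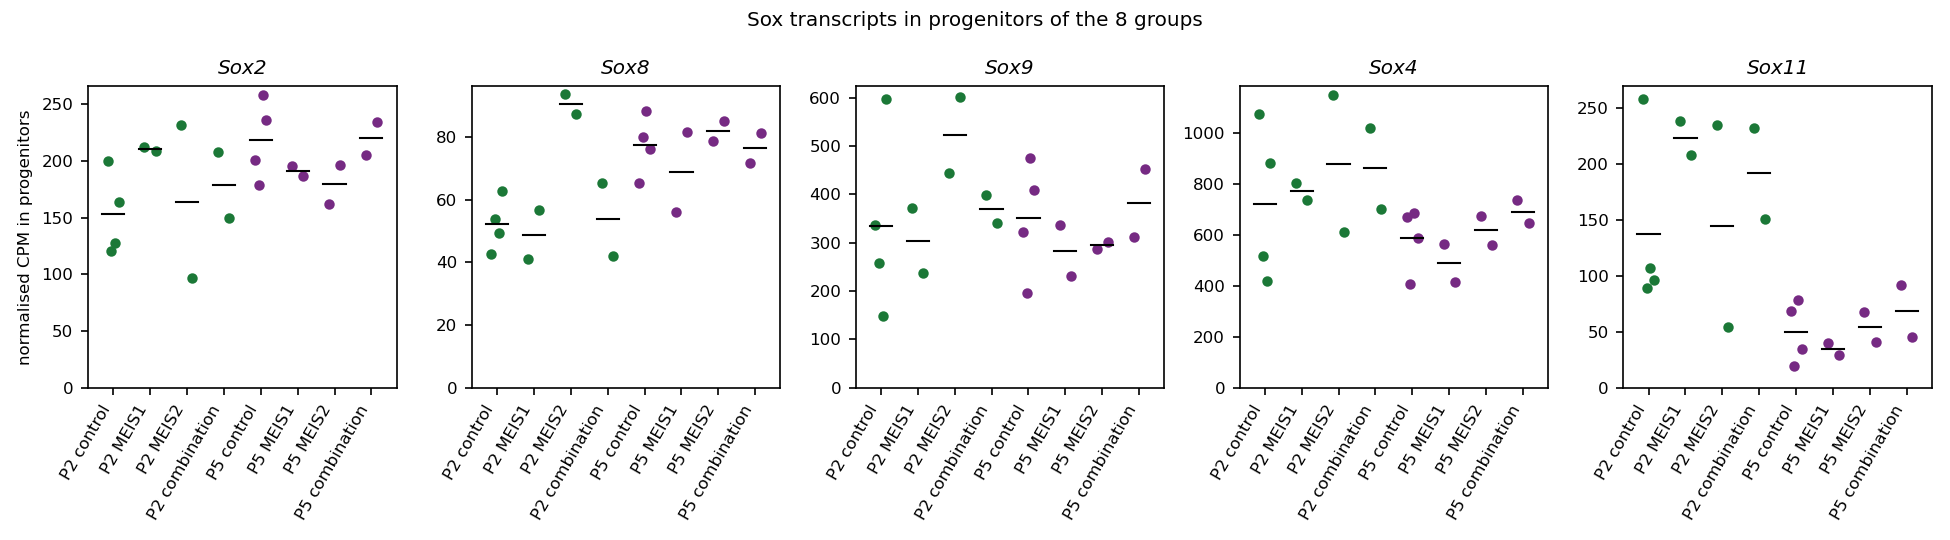
Level of each Sox gene in progenitors by group, in normalised CPM, with 1 point per library (green P2, purple P5) and a bar at the group mean. The construct libraries lie among the controls for most genes, and the 2 P2 MEIS2 libraries lie above the P2 controls for Sox8.

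Libraries of a group differed among themselves in a way shared across types. P2 control replicate 1 held the most Sox11 in 4 of 4 types compared, and P5 control replicate 3 the most Sox4 in 5 of 5 types and the most Sox9 in 4 of 5. P5 control replicate 2 was lowest in Sox4, Sox9 and Sox11 in 4 of 5 types each. The count of Gm26735, which overlaps Sox4, also differed between libraries relative to that of Sox4. Over all cells it had 153357 UMIs against 813703 for Sox4. Over the common types, cones left out, Gm26735 came to 11.3 to 16.3% of the Sox4 count in P2 control replicate 1. It came to 53.0 to 91.3% in replicate 2, 69.3 to 93.0% in replicate 3 and 24.0 to 25.3% in replicate 4. At P5 the shares were 11.6 to 20.6%, 32.3 to 50.7%, 11.1 to 13.1% and 20.7 to 24.4%. The P2 libraries low in Sox4, replicates 2 and 3, and P5 control replicate 2 thus had the highest shares, of which Sox4 is the denominator. The level of Gm26735 itself followed no single course. In P5 rods it was lowest (29.6 CPM) in replicate 2 and highest (87.7 CPM) in replicate 3, as Sox4 was. P5 amacrine cells also held the least of both in replicate 1. In P2 progenitors Gm26735 was instead lowest (121 CPM) in replicate 1, where Sox4 was highest, and highest (291 CPM) in replicate 3, where Sox4 was lowest. P2 rods (309 CPM in replicate 3) and P5 progenitors (135 CPM in replicate 2) likewise held the most where Sox4 was lowest. The cause was not tested. Counted together as an alternative chosen after seeing the data, Sox4 and Gm26735 fell in rods by 1.46 on the log2 scale (SE 0.42, edgeR adjusted p = 0.0282), which was called, and differed by -0.47 in progenitors (adjusted p = 0.152).

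**Figure D4:**
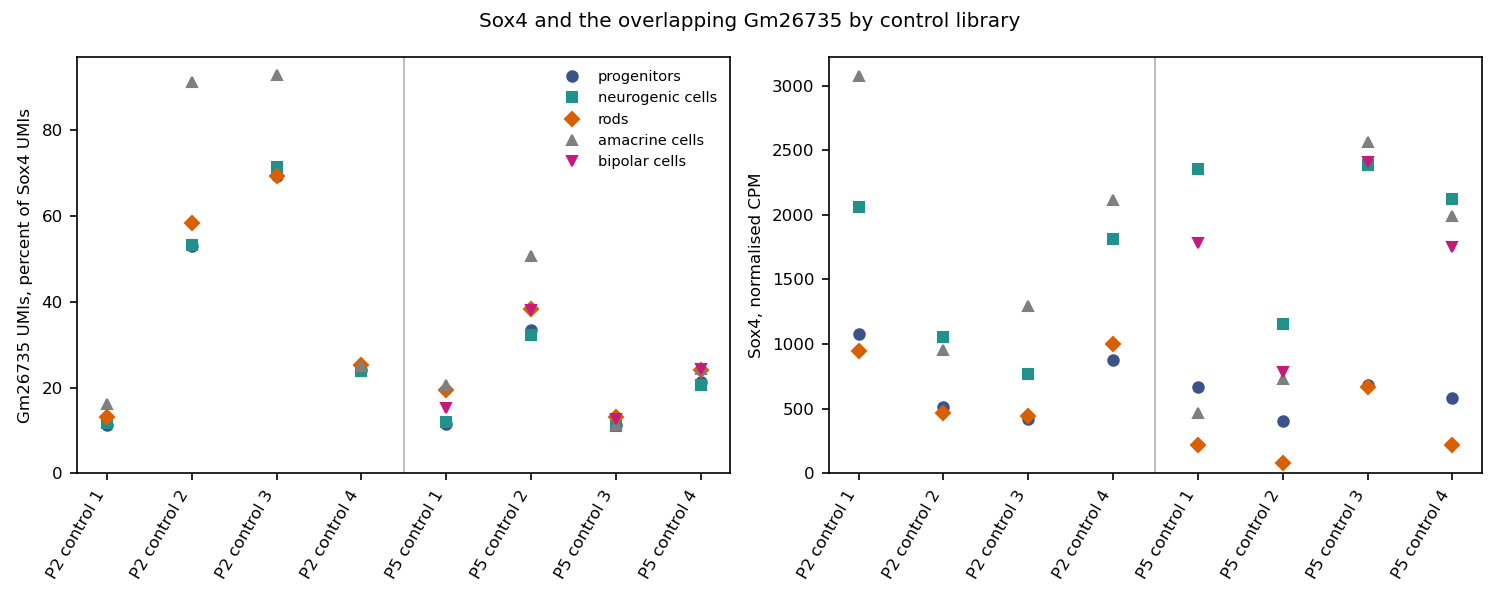
Gm26735 counts as a percent of Sox4 counts (left) and Sox4 in normalised CPM (right) for each control library, with 1 symbol per cell type. P2 control replicates 2 and 3 and P5 control replicate 2 have the highest percents, up to 93.0%, and low Sox4.

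Of 13 further Sox genes in the table, 6 were high enough to be tested in progenitors. Sox6, a SoxD gene, rose from 55.9 ± 24.0 to 157 ± 40.9 CPM in progenitors (SD, n = 4; log2 1.47, edgeR adjusted p = 0.00392) and from 34.5 ± 12.9 to 435 ± 226 CPM in neurogenic cells (log2 3.64, adjusted p = 3.91e-05). Sox3, a SoxB1 gene like Sox2, rose in neurogenic cells from 5.22 ± 1.99 to 14.1 ± 1.10 CPM (log2 1.36, edgeR adjusted p = 0.0369) and was 32.8 ± 5.69 and 26.9 ± 2.26 CPM in progenitors, where its difference was not called (-0.31, adjusted p = 0.315). Sox5, another SoxD gene, was highest in amacrine cells, at 238 ± 133 CPM at P2 and 252 ± 130 CPM at P5. Sox12, the third SoxC gene, was lower in progenitors (12.9 ± 3.81 and 13.5 ± 2.10 CPM) than in rods (49.8 ± 13.3 and 45.6 ± 8.0 CPM), the reverse of Sox11.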

How the data were processed

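The deposited values are unnormalised UMI counts, made by the authors from droplet (10x 3′) libraries with Cell Ranger on a modified mm10 genome, per the submitters' processing notes and the labels. A second deposited table gives each cell's library, type and percent of mitochondrial UMIs. The authors' filters and the strand setting are not given in the sources used here.

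Counts were summed per library and type with at least 20 cells, filtered by filterByExpr, scaled by TMM and fitted with a mean for each of 8 groups (edgeR 4.0.16, R 4.3.3, two-sided quasi-likelihood test). DESeq2 1.42.0 was an alternative, and Scrublet ran in scanpy 1.11.5 at an expected 6%. Only the edgeR test of P5 against P2 in progenitors was run on simulated counts, with the same spread for every gene. The DESeq2 fits and the joint fit of types were not. Genes of the lists and the 3 likest genes by Pearson r were named by rule. The members and lists were chosen with earlier results of these data known. Some genes of the lists are counted but not reported by name here.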

Additional observations from a re-analysis of the deposited data

Results flagged for a closer look

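In 50 groups of 4 libraries, the highest or lowest value was compared with the rest by Dixon's ratio of gap to range, whose 95% critical value chance passes in about 1 of 20 groups. It was passed by 4 values, each the highest of its group. Sox2 was 42.5 CPM in amacrine cells of P5 control replicate 3, where the other 3 held 0.883 to 4.0 CPM. Sox9 was 23.0 CPM in rods of the same library, against 2.16 to 4.76 CPM. Sox11 was 258 CPM in progenitors of P2 control replicate 1, against 88.9 to 107 CPM. Sox8 was 0.542 CPM in cones of P2 control replicate 1, which is 1 UMI, and had none in the other 3, so that it passed by construction and shows nothing.

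The age difference relative to progenitors was called by edgeR's interaction term in 4 cases: 1.43 for Sox8 in neurogenic cells (adjusted p = 0.0133), and in rods -1.93 for Sox2 (adjusted p = 0.0208), -2.27 for Sox9 (adjusted p = 0.000913) and -1.27 for Sox4 (adjusted p = 0.0380). The rod counts of Sox2 and Sox9 are low, and the part of free RNA in these terms was not tested.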

How the results depend on the processing

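Counts of called members are given against those of the report. For age in progenitors (2), the count was 1 with no TMM factors, no low-count filter, only the groups compared, no doublets, or without P2 control replicate 1 and P2 MEIS2 replicate 2, the libraries apart in depth. In the last setting neither Sox11 (-0.98, adjusted p = 0.0675) nor Sox8 (0.46, adjusted p = 0.0760) was called, and the 1 was Sox2 (0.64, adjusted p = 0.0150). In rods (2) it was 3 with DESeq2, which called Sox4, and 1 with only the groups compared or without those 2 libraries. Sox4 was also called in rods when counted together with Gm26735, as given above. With the replicate block the rod count was 4 (Sox2, Sox4, Sox9 and Sox11). The block changed no other call on age. The numbers were not used as pairs, since barcodes contradict them. Same-numbered P2 and P5 controls had correlated deviations of 0.126 to 0.304 in progenitors and 0.113 to 0.403 in amacrine cells. These went down to -0.0940 in neurogenic cells and 0.0229 in rods. In none of the 4 types did every library correlate best with its own number. Number 1 did in all 4 types, number 2 in progenitors and rods, number 3 in progenitors and amacrine cells, and number 4 in none. Whether the numbers mark shared batches was not tested. Without those 2 libraries the type terms fell from 1 to 0 in neurogenic cells and from 3 to 1 in rods. In amacrine cells the term rose from 0 to 1 (Sox11) with DESeq2 or no TMM factors, and MEIS2 at P2 from 0 to 1 (Sox8) likewise, where the log2 difference without TMM was 1.10 (adjusted p = 0.0426).

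With each library left out, counts ranged over 0 to 2 for age in progenitors, 2 to 3 in neurogenic cells, 1 to 4 in rods and 0 to 0 in amacrine cells, over 0 to 1, 1 to 4 and 0 to 2 for the type terms of neurogenic cells, rods and amacrine cells (gains named in the report), and over 0 to 0 for every MEIS comparison.

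No called difference reversed under any alternative. Uncalled ones did. Age: Sox9 in progenitors -0.0210 and Sox2 in amacrine cells 0.0216 without doublets, and Sox11 in amacrine cells -0.16 with the block. The 3 constructs at P5 in progenitors: Sox8 0.0768 and Sox9 0.13 with the block, Sox4 -0.0095 with Gm26735 added, and Sox11 -0.0101 without the filter, -0.00205 with groups from barcode starts, -0.00784 without doublets and -0.00272 without the 2 libraries apart. With a library left out, ranges crossed 0 for age of Sox9 in progenitors (-0.19 to 0.48) and of Sox2 (-2.12 to 0.36) and Sox11 (-0.32 to 0.50) in amacrine cells, for the constructs in progenitors with Sox11 at P2 (-0.0510 to 0.92), and Sox4 (-0.14 to 0.10), Sox8 (-0.13 to 0.0360), Sox9 (-0.35 to 0.0317) and Sox11 (-0.27 to 0.31) at P5, and for the Sox11 term in neurogenic cells (-0.0518 to 0.42). The causes were not tested.

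Bipolar cells could not be fitted between ages or for MEIS at P2, since under 2 libraries of a group held 20 cells. The type terms already hold the library as a block. Depth limits Sox8 outside progenitors and neurogenic cells, where most values are near 1 CPM.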
